A study of Mus musculus with 8 samples.

Results

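Expression of 5 Reg genes (Reg3g, Reg3b, Reg3a, Reg1 and Reg4) and of Retnlb was measured by RNA sequencing in Paneth cells sorted from mouse small intestine. The 6 genes were found by matching Ensembl identifiers to GENCODE symbols, and they made up 6 of the 55414 identifiers in the count table. The genes were chosen by their measured difference in counts between the groups, which was already known. Their levels in that comparison are therefore given as a description, without a test.

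Wild type mice gave the 4 libraries of the WT group. The 4 libraries of the TG group came from DT TG mice, which carry a diphtheria toxin transgene, in a study of purified cells after depletion of mature Paneth cells. Diphtheria toxin stops protein synthesis, and the sorted TG cells are those that could still be collected. The study describes its sorted Paneth cell samples as taken from individual mice of the C57BL/6J strain. The sources used here do not give the promoter of the transgene or the age of the mice, and toxin transcripts were not analysed here. In such bulk libraries, fewer cells of a type and less RNA per cell cannot be told apart.

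Reg proteins are small secreted C-type lectins. Reg3g and Reg3b bind bacteria at the mucosal surface, Reg3g acting mainly on Gram-positive species, and both genes are induced in the gut epithelium through MyD88-dependent sensing of microbes and through IL-22 and STAT3. Retnlb encodes RELMβ, a resistin-like protein best known from goblet cells, which acts on bacteria and is induced during type 2 immune responses. Reg4 is expressed in secretory cells of the crypt and differs from the other Reg genes in its genomic position.

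The TG libraries held 13107397 to 16218434 counts and the WT libraries 13601510 to 15018711, so that 3 counts corresponded to 0.185 to 0.229 CPM (counts scaled to the library total). Summed over Uty, Kdm5d, Eif2s3y and Ddx3y, which lie on the Y chromosome, the count was 0 in replicates 1 and 2 of either group and 897 to 1564 in replicates 3 and 4. Each group thus held 2 libraries of each kind, and values within each kind are given beside the results. The cell type of the label was checked with 10 Paneth cell markers, all of which were detected, at a summed 222963 to 290887 CPM in TG and 211224 to 299229 CPM in WT. Most of this sum was Lyz1 (mean 175041 CPM in TG and 166212 CPM in WT) and Itln1 (48437 and 51828 CPM), named after their values were seen. The sum therefore says little about the other markers, of which 3 were called lower in TG (given below). Of 10 immune cell markers, Cd4, Il22 and Il13 had 0 counts in all 8 libraries, and Ptprc stayed below 1 CPM in each.

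Reg3g, Reg3b, Reg3a and Reg1 lie together with Reg2 and Reg3d within 98.2 kb of chromosome 6 (GRCm39). Reg3g (ENSMUSG00000030017) occupies 78443246 to 78445859 on the minus strand. Reg3b (ENSMUSG00000071356) occupies 78347640 to 78350455, Reg3a (ENSMUSG00000079516) 78357692 to 78360810 and Reg1 (ENSMUSG00000059654) 78399694 to 78405828, all on the plus strand. Reg4 (ENSMUSG00000027876) lies apart on chromosome 3, at 98129468 to 98144066 on the plus strand. Retnlb (ENSMUSG00000022650) lies on chromosome 16, at 48637219 to 48639255 on the plus strand. The counts of the related Reg genes are separable in principle, since 0 of the 75-base windows of each gene's transcripts occurred in a transcript of another gene.

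The 150 bases before the RefSeq start site are shown for the 3 most abundant members. Of these, Reg3g was lower and Reg4 higher in every TG library, and Reg3b had a lower mean in TG with overlapping groups. The RefSeq promoter table (GRCm38.p6) held 5 of the 6 genes, not Retnlb, and each sequence shown matched GRCm39 exactly once. Capitals mark matches to 4 motifs searched on both strands, namely TTCNNNGAA (STAT), the same with 1 more base between its ends (STAT6 spacing), an NF-kB-like motif (GGGA, any 4 bases and CC) and TATAAA.
Reg3g (chr6:78445858-78446007, minus strand): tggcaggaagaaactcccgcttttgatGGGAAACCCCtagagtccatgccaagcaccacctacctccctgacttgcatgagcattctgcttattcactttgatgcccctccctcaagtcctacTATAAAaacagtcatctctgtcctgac
Reg3b (chr6:78347718-78347867, plus strand): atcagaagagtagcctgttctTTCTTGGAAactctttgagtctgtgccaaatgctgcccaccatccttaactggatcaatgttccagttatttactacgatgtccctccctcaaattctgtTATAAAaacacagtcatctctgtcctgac
Reg4 (chr3:98129322-98129471, plus strand): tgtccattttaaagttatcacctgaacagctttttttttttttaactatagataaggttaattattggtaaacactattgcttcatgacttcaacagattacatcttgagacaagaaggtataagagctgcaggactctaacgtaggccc

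The Reg3g and Reg3b windows were identical at 104 of 150 positions (69.3%), against 36.7 to 52.0% for the other pairs of Reg genes. TATAAA began 27 bases before the start of Reg3g, 29 before that of Reg3b and 30 before that of Reg1, and 7.57% of 32851 windows of this length in the table held it. The other matches were not shared by the pair. The Reg3b window held TTCTTGGAA, a STAT match found in 4.09% of all windows, and the Reg3g window held GGGAAACCCC, an NF-kB-like match found in 11.9%. The STAT6 spacing, in 3.17% of all windows, was in none of the 5 windows, and the Reg4 and Reg3a windows held none of the 4 motifs.

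Reg3g was among the most abundant transcripts of WT Paneth cells and was lower in all TG libraries. TMM-normalised levels were 6092, 4304, 1616 and 3556 CPM in WT replicates 1 to 4, and 615, 653, 613 and 428 CPM in TG replicates 1 to 4. Even the lowest WT library, replicate 3, stood above the highest TG library, so the groups did not overlap. Means were 3892 ± 1853 CPM in WT and 577 ± 101 CPM in TG (SD, n = 4 each), which is 6.74-fold higher in WT, with a log2 fold change of -2.75 ± 0.38 (SE). By CPM, Reg3g ranked 14 to 27 among all genes in the WT libraries and 57 to 103 in the TG libraries. The lower level in TG was seen within both kinds of library, with log2 fold changes of -3.04 without and -2.31 with Y-linked counts.

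Reg3b, the close relative of Reg3g that acts on Gram-negative bacteria as well, had the same direction but overlapping groups. Its levels were 557, 420, 85.4 and 263 CPM in WT and 112, 92.4, 97.4 and 69.4 CPM in TG. WT replicate 3 lay inside the TG range, and the other 3 WT libraries lay above every TG library. The means were 331 ± 203 CPM in WT and 92.8 ± 17.7 CPM in TG (SD, n = 4 each), with a log2 fold change of -1.83 ± 0.56 (SE). The difference was -2.26 in the libraries without Y-linked counts but -1.05 in those with them. Reg3g exceeded Reg3b in each library, and the ratio of their counts was 13.4 ± 3.93 in WT and 6.26 ± 0.65 in TG. The lowest WT ratio, 10.2, was above the highest TG ratio, 7.07, so that Reg3g was lower by a larger factor than Reg3b.

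Retnlb was the member with the largest relative difference. WT libraries 1 to 4 had 69.9, 79.5, 31.2 and 29.9 CPM, and TG libraries 1 to 4 had 3.56, 2.67, 5.07 and 2.20 CPM. The lowest WT value was thus several times the highest TG value. Behind these values were 402 to 1143 counts in WT and 29 to 90 counts in TG, so the low TG level was measured above the 3-count floor in every library. The means, 52.6 ± 25.8 CPM in WT and 3.38 ± 1.26 CPM in TG (SD, n = 4 each), differed 15.6-fold, with a log2 fold change of -3.93 ± 0.49 (SE). WT replicates 1 and 2, without Y-linked counts, had more than replicates 3 and 4, and the log2 fold change was -4.57 without and -3.01 with Y-linked counts.

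Reg4 went the other way. TG libraries 1 to 4 had 3132, 2813, 2284 and 3737 CPM, and WT libraries 1 to 4 had 1341, 1738, 1077 and 1177 CPM. Every TG library stood above every WT library. Mean levels were 2992 ± 608 CPM in TG and 1333 ± 291 CPM in WT (SD, n = 4 each), 2.24-fold higher in TG, with a log2 fold change of 1.17 ± 0.17 (SE). Reg4 ranked 28 to 40 by CPM in WT libraries and 15 to 21 in TG libraries. Within the libraries without and with Y-linked counts the log2 fold changes were 0.95 and 1.42.

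Reg3a and Reg1, a further Reg3 lectin and the founding member of the family, were near the limit of what these libraries could show. Reg3a had 5 to 21 counts in WT libraries and 4 to 39 in TG libraries, with 0.858 ± 0.523 CPM and 1.36 ± 1.15 CPM (SD, n = 4 each). Reg1 had 7 to 28 counts in WT libraries and 3 to 65 in TG libraries, with 1.26 ± 0.65 CPM and 2.15 ± 1.89 CPM (SD, n = 4 each). The groups overlapped for both genes, and the log2 fold changes, 0.63 ± 0.62 for Reg3a and 0.81 ± 0.73 for Reg1, were close to their SE. Without Y-linked counts that of Reg3a was -1.09 and with them it was 2.26, and it became -0.044 without TG replicate 4. For Reg1 these values were 1.45 and 0.33. Of the other Reg and resistin family genes, Reg2, Retn, Retnla and Retnlg had 0 counts in all 8 libraries, and Reg3d had 1 count in each of WT replicates 1, 2 and 4.

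**Figure D1:**
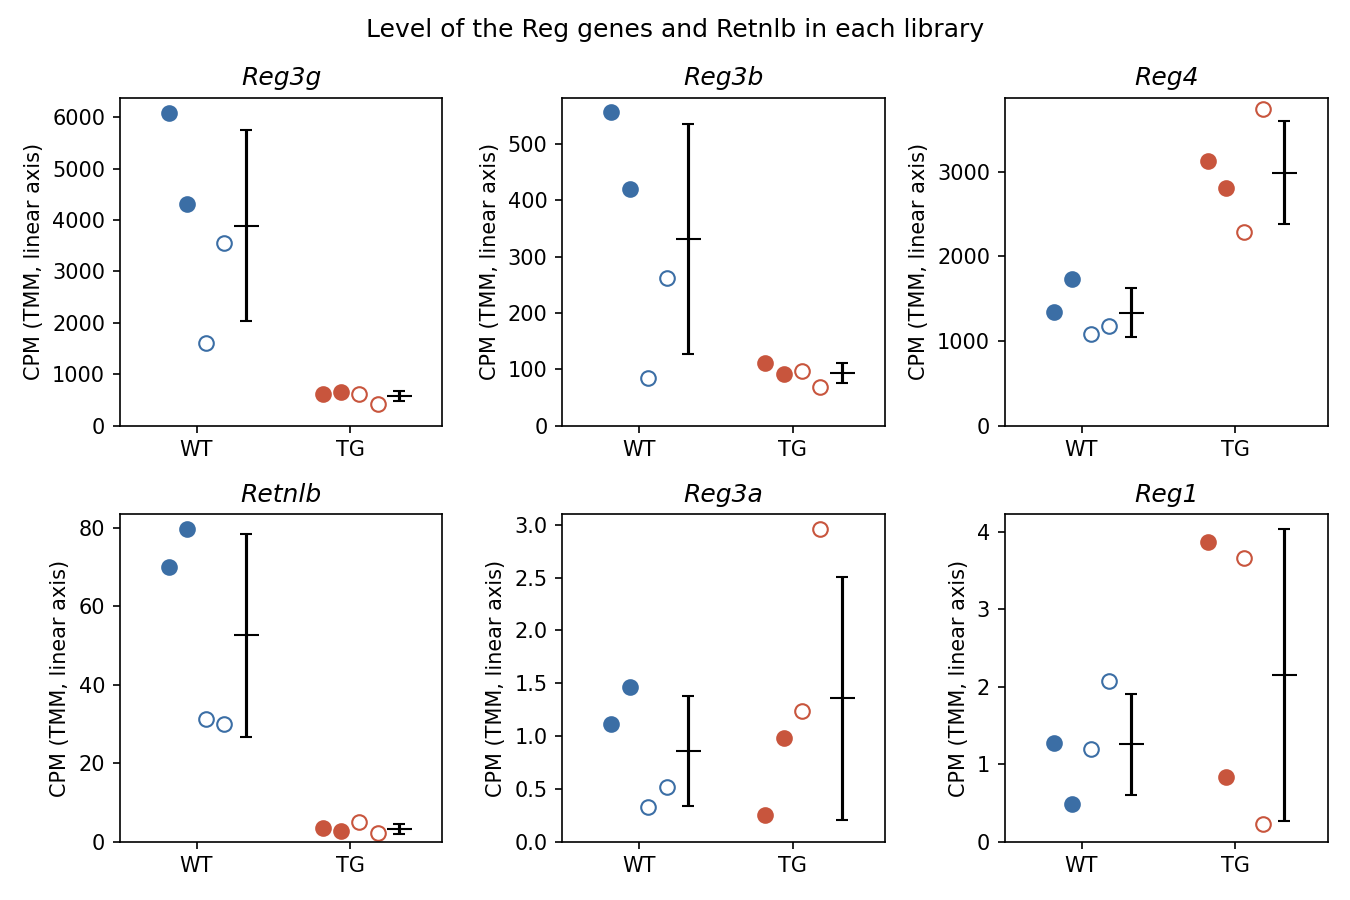
Level of each gene (vertical axes, TMM-normalised CPM on linear scales from 0) in the WT and TG libraries, where each point is a library, filled without and open with Y-linked counts, and the bar beside the points is the mean ± SD (n = 4). Reg3g and Retnlb lie lower and Reg4 higher in all 4 TG libraries, whereas the groups overlap for Reg3b, Reg3a and Reg1.

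All 6 genes passed the filter on low counts. Reg3g, Retnlb and Reg4 were called at an adjusted p below 0.05 by edgeR's quasi-likelihood test across all genes, 3 of 6, where 17.9% of the 11929 tested genes were called in either direction. The 2 lower genes stand beside a background of 9.65% and the higher gene beside 8.26%. The same 3 genes had groups that did not overlap, against 22.0% of tested genes in either direction. Because this comparison chose the genes, nothing is read from these counts.

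Levels were compared between genes after division by the length of the canonical transcript. Per kilobase, WT cells had 5003 ± 2382 CPM of Reg3g, 1298 ± 283 of Reg4, 420 ± 258 of Reg3b and 75.6 ± 37.1 of Retnlb (SD, n = 4 each). In TG cells the leading gene was Reg4, with 2913 ± 592 CPM per kilobase, followed by Reg3g with 742 ± 130, Reg3b with 118 ± 22.4 and Retnlb with 4.85 ± 1.82 (SD, n = 4 each). Reg1 and Reg3a came last in both groups, with 1.33 ± 0.69 and 1.04 ± 0.63 CPM per kilobase in WT and 2.27 ± 1.99 and 1.65 ± 1.39 in TG, and did not differ from each other beyond their spread. By these means Reg3g and Reg4 exchanged places at the head of the family, and the other neighbours kept theirs. In TG replicate 4, Reg3a (3.59 CPM per kilobase) stood above Retnlb (3.16). The order of the means was the same with the joined length of all annotated exons, but in WT replicate 3 Reg4 (912 CPM per kilobase) then stood above Reg3g (750.5).

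The makeup of the Reg counts showed the exchange within each library, free of the scaling between libraries. Reg4 took 16.8, 26.9, 38.8 and 23.6% of the counts of the 5 Reg genes in WT replicates 1 to 4, and 81.1, 79.0, 76.1 and 88.2% in TG replicates 1 to 4. The 95% Wilson intervals, which cover counting error only, ran from 16.5 to 17.0% at the lowest share and from 87.9 to 88.5% at the highest, far narrower than the spread between libraries. The share of Reg3g was 68.0 ± 7.68% in WT and 16.2 ± 4.47% in TG, and that of Reg3b was 5.45 ± 1.74% and 2.60 ± 0.69% (SD, n = 4 each). In contrast, the summed Reg counts differed by less than the WT spread, at 0.522 ± 0.177% of all counts in WT and 0.380 ± 0.036% in TG (SD, n = 4 each). WT replicate 3, at 0.306%, lay below every TG library in this sum.

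**Figure D2:**
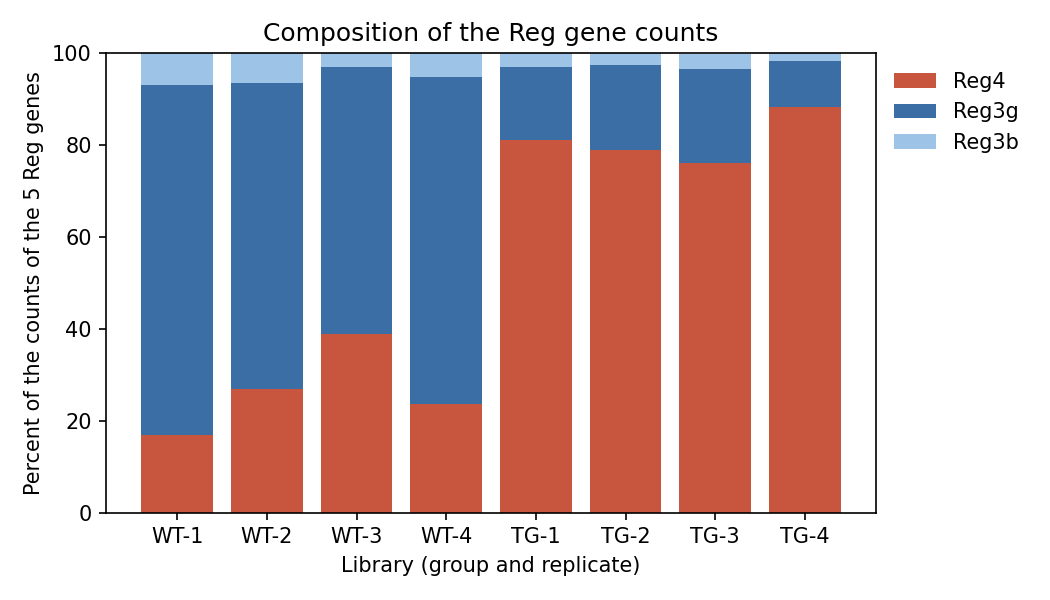
Share of Reg4, Reg3g and Reg3b in the counts of the 5 Reg genes (vertical axis, percent) for each library (horizontal axis), with the small shares of Reg3a and Reg1 making up the rest to the top. Reg4 takes 16.8 to 38.8% in the WT libraries and 76.1 to 88.2% in the TG libraries.

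The spread between replicates was unlike in the 2 groups. The coefficient of variation of Reg3g was 47.6% in WT and 17.5% in TG, and that of Reg3b was 61.4% and 19.0%. Reg4 varied alike in both, with 21.8% and 20.3%, and Retnlb had 49.1% and 37.4%. Reg3g and Reg3b deviated from their group means in the same libraries, high in WT replicate 1 and low in WT replicate 3 and TG replicate 4. Over the 8 libraries these deviations, on the log2 CPM scale, had a Pearson r of 0.98 and a Spearman rho of 0.93, and r was 0.86 without WT replicates 1 and 3, the 2 libraries farthest from the median. Retnlb had r = 0.68 with Reg3g and 0.72 with Reg3b (0.61 and 0.77 without these libraries). Reg4 had r = 0.25 with Reg3g, which turned to -0.22 without them. These values describe 8 libraries and carry no test, and each pair of genes shares its libraries and their scaling.

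**Figure D3:**
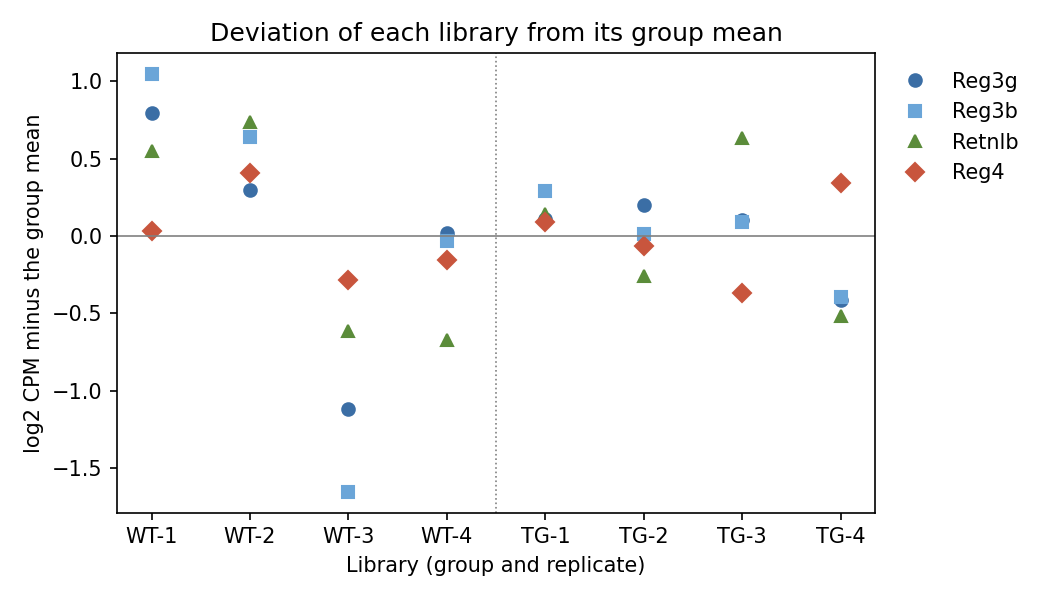
Deviation of log2 CPM from the group mean (vertical axis) of Reg3g, Reg3b, Retnlb and Reg4 in each library (horizontal axis, WT left and TG right of the dotted line). Reg3b and Reg3g lie close together in most libraries, from 1.05 and 0.80 in WT replicate 1 to -1.65 and -1.12 in WT replicate 3.

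Among 8124 genes with a mean log2 CPM of at least 3, the deviations most like those of Reg3g belonged to Cnppd1 (r = 0.99), Reg3b (r = 0.98), Pink1 (r = 0.97) and Slc30a4 (r = 0.97). Cnppd1 was higher in TG, opposite to Reg3g, with a log2 fold change of 0.39 ± 0.08 (edgeR adjusted p = 0.00680). Pink1 and Slc30a4 had 0.08 and -0.11 (edgeR adjusted p = 0.604 and 0.479). The genes most like Retnlb were Syne4 (r = 0.99), Tifa (r = 0.97), Chrnb4 (r = 0.97) and Prune2 (r = 0.96), which all had lower fitted levels in TG, with log2 fold changes of -0.69, -1.25, -1.32 and -1.38. These r are the highest among 8124 genes over few libraries, so high values follow from the selection, and nothing is read from them.

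Whether the difference between TG and WT depended on the kind of library was a question the choice of genes had not used. In WT, libraries without Y-linked counts had mean levels of 5198 CPM of Reg3g, 489 of Reg3b and 74.7 of Retnlb, against 2586, 174 and 30.5 CPM in those with Y-linked counts. In TG the corresponding means were 634 and 521 CPM of Reg3g, 102 and 83.4 of Reg3b, and 3.12 and 3.64 of Retnlb. The interaction was 1.56 ± 0.39 (log2, SE) for Retnlb, with an edgeR p of 0.00219 and an adjusted p of 0.507, and 3.35 ± 0.92 for Reg3a, with 0.00298 and 0.558. For Reg3g, Reg3b, Reg1 and Reg4 the edgeR adjusted p was 0.921, 0.932, 0.967 and 0.924. Thus 0 of 6 genes passed in this fit, where 0.0251% of tested genes did, and 2 of 6 had an unadjusted p below 0.05, where 5.73% did.

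The Retnlb interaction depended on the method, since its adjusted p was 0.0256 with DESeq2 and 8.49e-06 in edgeR without the filter on low counts. It was 1.98 (log2) without TG replicate 4, a fit in which TG replicate 3 alone stood for the TG libraries with Y-linked counts. That of Reg3a was 0.0306 in edgeR without the filter. In the fit without an interaction, libraries with Y-linked counts differed from those without by -0.65 ± 0.27 for Reg3g and -0.81 ± 0.34 for Retnlb (log2, SE), with edgeR adjusted p of 0.836 and 0.852 (unadjusted p 0.0357 and 0.0466). No member passed in this edgeR fit, where 0.176% of tested genes did, and these 2 of 6 had an unadjusted p below 0.05, against 5.82%. Without TG replicate 3 the edgeR adjusted p of Retnlb became 0.00568. The sex of the mice is not given in the labels, and a batch that follows the replicate numbers cannot be told apart from it.

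Genes of the pathways known to induce Reg3g and Reg3b were examined with edgeR's quasi-likelihood test over all genes. Of 19 genes of IL-22 and IL-6 family receptors and STAT3 signalling, 17 were tested, 5 fell and 1 rose, with a median log2 fold change of -0.03. Over all tested genes 9.65% were lower and 8.26% higher, with a median of 0.01. Stat3, the transcription factor itself, fell from 138 ± 19.3 to 80.0 ± 14.8 CPM (SD, n = 4 each), a log2 fold change of -0.78 ± 0.13 (edgeR adjusted p = 0.00205). Socs3, a feedback inhibitor and STAT3 target, fell from 38.5 ± 24.0 to 7.48 ± 1.12 CPM (SD, n = 4 each; edgeR adjusted p = 0.0305), a call that was lost without WT replicate 1 or any single TG library. Bcl3 (-0.83 ± 0.16) and Il6st, the shared receptor chain gp130 (-0.31 ± 0.09, named after its value was seen), also fell, with edgeR adjusted p of 0.00538 and 0.0225. Il6ra, the IL-6 receptor, rose by 0.87 ± 0.20 (log2, SE; edgeR adjusted p = 0.0123), and the IL-22 receptor gene Il22ra1 had 0.23 ± 0.11 (edgeR adjusted p = 0.167). The number of lower genes was 3 with total counts alone, 3 without TG replicate 1, 2 or 3 in turn, and 1 in the libraries with Y-linked counts.

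Defence genes that IL-22 or microbes induce in the epithelium stood mostly below WT, as did Reg3g and Retnlb. Of 17 genes, 10 were tested and 8 fell (against 9.65% of all tested genes), with a median log2 fold change of -0.81, while none rose. Pigr, which carries IgA across the epithelium, fell from 2453 ± 373 to 1338 ± 283 CPM (SD, n = 4 each; edgeR adjusted p = 0.00304). Nos2, which makes nitric oxide (-0.95 ± 0.22), Duox2, which makes hydrogen peroxide (-0.47 ± 0.12), and Tifa, an adaptor of NF-kB signalling (-1.25 ± 0.27), had edgeR adjusted p of 0.0105, 0.0175 and 0.0197. Fut2, which fucosylates surface glycans, fell from 11.5 ± 8.69 to 1.11 ± 0.83 CPM (SD, n = 4 each; edgeR adjusted p = 0.0403). The call of Fut2 was lost without any single TG library or WT replicate 1 or 2, and with the replicate number as a block (adjusted p = 0.160 by edgeR), and that of Tifa without TG replicate 2 or WT replicate 1. The other 3, named after their values were seen, were Ccl28, Pla2g5 and Duoxa2. The count of 8 became 3 with total counts alone, where Nos2 and Duox2 had edgeR adjusted p of 0.0597 and 0.155, 5 without TG replicate 1 or 4, 4 without TG replicate 2, 3 without WT replicate 1 and 0 in the libraries with Y-linked counts.

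Of 21 genes from Toll-like receptors, NOD2 and MyD88 to NF-kB, 19 were tested, 6 fell and 1 rose (against 9.65 and 8.26% of all tested genes), with a median log2 fold change of -0.22. The adaptors Tirap (-0.79 ± 0.11) and Ticam1 (-0.62 ± 0.10) and the inhibitor Nfkbia (-0.31 ± 0.08) were lower, with edgeR adjusted p of 0.000885, 0.00150 and 0.0177 (Nfkbia not called without TG replicate 1 or 2), whereas the flagellin receptor Tlr5 was higher by 0.86 ± 0.15 (log2, SE; edgeR adjusted p = 0.00207). Nfkbiz, Nod2 and Nfkb1, named after their values were seen, were the other lower genes, and the adaptor Myd88 itself had -0.32 ± 0.12 (edgeR adjusted p = 0.0887). Without a single library the count of 6 was as low as 2 (TG replicate 2), 3 without TG replicate 1 or WT replicate 1, and 4 without TG replicate 3 or WT replicates 2 or 4 in turn. In the libraries with Y-linked counts it was 0. With total counts alone it was 2, and Nfkbia had an edgeR adjusted p of 0.311. Of 11 genes of the IL-4 and IL-13 to STAT6 pathway and other Retnlb regulators, 9 were tested and 0 were called by edgeR (2 had an unadjusted p below 0.05), with a median of 0.00. There 1 was lower with DESeq2, with voom or without WT replicate 3, and 1 was higher without the filter. Of the 3 Reg receptor candidates (Extl3, Egfr and Cd44) 0 were called by edgeR (1 had an unadjusted p below 0.05), with a median of -0.05, while 1 was higher in the libraries without Y-linked counts and 1 lower without WT replicate 3.

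**Figure D4:**
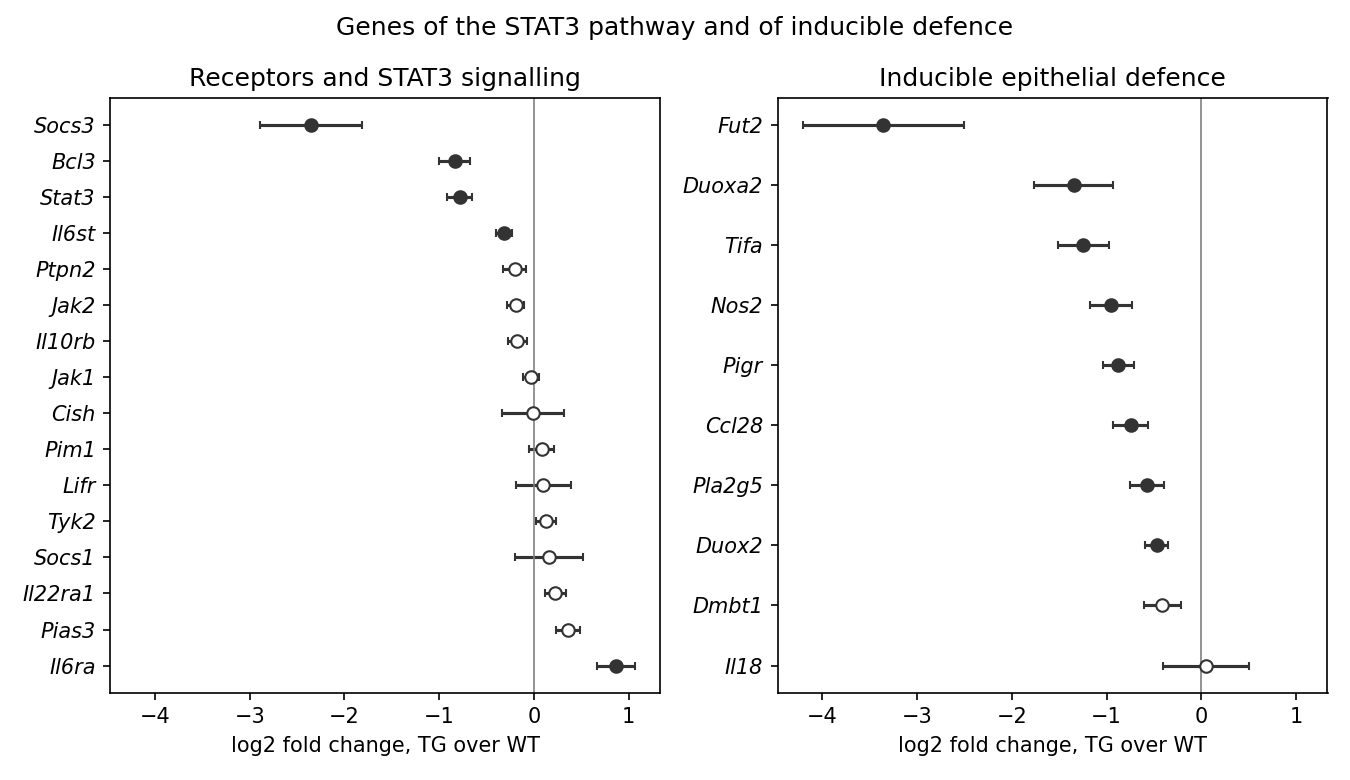
Log2 fold change of TG over WT with its SE (horizontal axes) for tested genes of IL-22 and IL-6 family receptors and STAT3 signalling (left) and of inducible epithelial defence (right), with filled points for an edgeR adjusted p below 0.05. The left panel shows 4 filled genes below 0 and 1 above, and the right panel has 8 below and none above.

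Markers of other cells, which the sort for Paneth cells is meant to leave out, were set beside these results. Of 8 goblet cell markers, the lineage in which Retnlb is best known, 0 were called by edgeR (1 had an unadjusted p below 0.05, 1 or 2 were lower under 6 alternatives and 1 higher in the libraries with Y-linked counts), and their summed level was 8660 to 11978 CPM in TG and 10881 to 12682 CPM in WT. Of 10 enteroendocrine markers, 5 were tested, with a median log2 fold change of -1.66. Tac1 fell (edgeR adjusted p = 0.0287, lost without TG replicate 1 or 2 or WT replicate 1 or 3) and none rose, where 9.65% of all tested genes fell. The sums were 22.8 to 36.4 CPM in TG and 30.0 to 69.5 CPM in WT. Much of them was Sct, named after its value was seen (means 22.0 CPM in TG and 22.6 CPM in WT). The part of goblet and enteroendocrine cells in the Retnlb and Reg4 results was not tested.

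Enterocyte markers moved with the groups. Of 11, 5 rose by edgeR's test and none fell, where 8.26% of all tested genes rose and 9.65% fell. The median log2 fold change was 1.56, and the sum was 151 to 292 CPM in TG against 78.2 to 135 CPM in WT. The count of 5 was 3 without WT replicate 1 or 2, 2 in the libraries with Y-linked counts, 8 with DESeq2, 9 with a Y-linked covariate and 10 with the replicate number as a block. Alpi, an alkaline phosphatase of the brush border, rose by 2.56 on the log2 scale and Apob by 1.07 (edgeR adjusted p = 0.00462 and 0.00310). Enterocytes of the villus are also known to make Reg3g and Reg3b. Reg3g was lower in all TG libraries, and Reg3b had a lower mean in TG with overlapping groups. The part of enterocytes in the Reg results was not tested. Of the 10 Paneth cell markers, Mptx2, Mmp7 and Ang4 fell (edgeR adjusted p = 0.00116, 0.0179 and 0.0370) and none rose, with a median log2 fold change of -0.33. Of all tested genes 9.65% fell and 8.26% rose. The count of lower Paneth cell markers was 1 without TG replicate 2 and 0 in the libraries with Y-linked counts. A single marker (1 of 10) was higher without WT replicate 3. The call of Ang4 was lost without TG replicate 1, 2 or 3 or WT replicate 1, 2 or 4, and its edgeR adjusted p was 0.0511 with a Y-linked covariate. Mmp7 was not called without TG replicate 2. Tuft markers (5, of which 3 were tested, 14.4 to 46.3 CPM in TG and 16.1 to 31.8 in WT) had 0 calls by edgeR, and of 5 stem cell markers Axin2 rose and Smoc2 fell (edgeR adjusted p = 0.0107 and 0.0139, and 0.198 for Smoc2 with total counts alone). The immune cell markers, of which 1 was tested, had 0 calls and summed to 12.9 to 17.9 CPM in TG and 11.5 to 17.3 CPM in WT.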

How the data were processed

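RNA was measured in 8 libraries of sorted Paneth cells, prepared with a stranded mRNA kit per the labels, which also gave groups and replicate numbers. The authors deposited whole-number counts per Ensembl gene, without normalisation. The submitters' processing notes name FastQC 0.12.0, STAR 2.7.0a, DESeq2 and mm39. The sources used here do not give the counting tool, the annotation or the treatment of reads with several alignments. Replicates of a group differed by more than sampling noise (chi-square per degree of freedom of at least 5.20), so all 8 libraries were counted.

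Symbols and positions came from GENCODE M39 (GRCm39), which matched 54749 of 55414 identifiers. Counts were tested with edgeR 4.0.16 in R 4.3.3 (robust quasi-likelihood, TMM factors, default filter by group, Benjamini-Hochberg adjustment at 0.05), with group as the only term, or with the Y-linked class and its interaction. CPM are TMM-normalised, and deviations used log2 CPM with a prior count of 2. Total counts, 13107397 to 16218434 per library, set the precision of low genes.

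The members, the gene lists and the kinds of test were chosen with earlier results of these data known. Genes named were the 6 members, up to 4 called genes with the smallest p per list, list genes with a called interaction, and the 4 genes most like Reg3g and Retnlb. Others are said to be named after their values were seen or are given with no call of their own. Some genes of the lists count in the totals but are not reported here or plotted.

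Alternatives were DESeq2 1.42.0, limma 3.58.1 (voom, quality weights), total counts, RLE factors, library sizes without 28 alpha-defensin genes, no filter, 1 CPM in 4 libraries, a replicate block, a Y-linked covariate, fits within each Y-linked class and leaving out each library. Division by the joined exon length was added after seeing the data. On simulated data with 200 of 11929 genes changed, edgeR recovered 82% of the TG over WT changes of log2 size 1 and 95.5% of size 2, but 22% and 79.5% of the interactions of these sizes. Beside these it made 8 and 17 false calls for TG over WT and 7 and 14 for the interaction. The data themselves held more called genes, 2136 for TG over WT.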

Additional observations from a re-analysis of the deposited data

Results flagged for a closer look

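Among 58 groups of 4 libraries examined, 4 held a library that stood apart from the other 3, where chance gives about 1 in 20 groups. All 4 concern genes of the lists and none a Reg gene or Retnlb. The gap divided by the range was 0.891 for Ang4 in WT, where replicate 3 had 11066 CPM against 17638 to 18441 CPM in the others. It was 0.909 for Axin2 in WT (replicate 3, 84.6 CPM against 57.9 to 60.4 CPM) and 0.927 for Nfkbia in WT (replicate 1, 48.8 CPM against 43.5 to 43.9 CPM). In TG, replicate 3 stood apart for Tac1 (0.922, with 0.902 CPM against 0 to 0.0703 CPM). WT replicate 3, high in Axin2 and low in Ang4, was also the lowest WT library of Reg3g and Reg3b.

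The interaction of TG over WT with the Y-linked class had an edgeR adjusted p of 0.0456 for both Fut2 and Socs3, whereas 0 genes were called with total counts alone or with a minimum of 1 CPM in 4 libraries. Without Y-linked counts the log2 fold change of Fut2 was -5.52, and with them it was -1.26, and that of Socs3 was -2.90 and -1.32. The interaction of Retnlb had the same sign, with an edgeR adjusted p of 0.507.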

How the results depend on the processing

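The log2 fold changes of Reg3g, Reg3b, Reg1, Reg4 and Retnlb kept their direction in 19 of 19 alternatives. These fits reuse the same 8 libraries and the difference that chose the genes, so the kept direction is no separate evidence. For Reg1, whose main value was close to its SE, they ranged from 0.33 to 1.45. Leaving out each library gave -3.01 to -2.45 for Reg3g, -2.16 to -1.47 for Reg3b, 0.40 to 1.16 for Reg1, 1.04 to 1.32 for Reg4, -4.21 to -3.66 for Retnlb and -0.044 to 1.03 for Reg3a, which turned negative without TG replicate 4. Within the libraries without Y-linked counts, Retnlb had -4.57, Reg3a -1.09, Reg3b -2.26 and Reg1 1.45, and within those with them -3.01, 2.26, -1.05 and 0.33. Genes higher and lower in TG (985 and 1151) became 500 and 638 without and 113 and 103 with Y-linked counts, 4 libraries each, and ranged from 485 to 1045 and from 553 to 1183 when a library was left out. TG replicates 1 (533 and 553) and 2 (485 and 570) gave the low counts. With total counts alone 263 genes were lower and 787 higher, so that 74.95% instead of 46.1% of calls were higher. The median of all genes then moved from 0.01 to 0.12, and Reg3g, Reg3b, Reg4 and Retnlb had -2.58, -1.66, 1.27 and -3.80.

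The 3 interaction calls became 20 with DESeq2, 1 with voom, 0 with total counts, 69 without the filter, 0 with a minimum of 1 CPM and 0 to 45 when a library was left out. The 21 genes differing by Y-linked class became 50 with DESeq2, 11 with total counts, 145 without the filter and 9 to 24 when a library was left out. The cause of these changes was not tested, and an interaction fit without a library rests on 1 library of a group and Y-linked class. With the replicate number as a block, 1039 genes were higher and 1164 lower, and Reg3g, Reg3b, Reg4 and Retnlb had -2.63, -1.60, 1.17 and -3.85. The same-numbered libraries had correlations of deviations of 0.08, 0.07, 0.29 and 0.23, and only numbers 3 and 4 had their own number as best partner, so the numbers were not taken as pairs, although they carry the Y-linked class. Of 436 values under alternatives of the 23 list genes that the naming rule gave, 369 kept direction and call, 67 lost the call, 19 of these in the 4 libraries with Y-linked counts, and 0 reversed. Depth limits Reg3a and Reg1, with as few as 4 and 3 counts in a library.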
